A study of Rattus norvegicus with 12 samples.

Results

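MHC class II molecules are the cell surface proteins that present peptides to CD4 T cells, and 8 genes of this system in the rat were described here: the chains of the RT1-B molecule (RT1-Ba and RT1-Bb), the chains of the RT1-D molecule (RT1-Da and RT1-Db1), the chains of the peptide editor RT1-DM (RT1-DMa and RT1-DMb), the invariant chain Cd74 and the transactivator Ciita. The members were taken by name, as every array probe that carries one of these 8 gene names. They made up 8 of 26456 genes and 10 of 30367 probes on the array, and all 10 were among the 23209 probes tested, those which the scanner software marked as well above background on 3 or more of the 12 arrays. Total RNA of the lumbar mammary gland of female Wistar rats was labelled with Cy3 and hybridised to one-colour Agilent arrays, 1 array per rat. The question was how the diet of the mother in pregnancy bears on the gland of the offspring as its ducts begin (day 21) and end (day 28) their growth in puberty. The mothers received chow with 17.0% protein (normal protein, NP) or 8.8% protein (low protein, LP) during pregnancy. From birth on, both groups had standard chow, and each litter was kept at 6 females. Glands were taken on day 21 or day 28 of life, and visible lymph nodes were removed from them. The 4 groups, NP_d21, LP_d21, NP_d28 and LP_d28, held 3 rats each, which are named by the replicate labels of the samples (4a, 5a, 6a and so on).

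An MHC class II molecule is a pair of an alpha and a beta chain that is assembled with the invariant chain in the endoplasmic reticulum and travels to endosomes, where the invariant chain is degraded and DM exchanges its last fragment for a peptide. Dendritic cells, B cells and macrophages carry these molecules at all times, and other cells, epithelium among them, can be brought to make them by interferon gamma. Transcription of the whole set depends on Ciita, which binds no DNA itself and is held at the promoters by factors bound to the X and Y boxes.

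Every level below is the log2 of the spot signal minus the 75th percentile of that array, so that 0 is a probe as bright as the 75th percentile and 1 unit is a 2-fold difference. Where a gene had several probes, the brightest stood for it. The share of gene spots well above background ran from 74.8% to 79.6% over the arrays, none was saturated, and the 75th percentile lay between 1451 and 2370 signal units. All day 21 arrays were on slide 1 and all day 28 arrays on slide 2, so day and slide cannot be told apart. All 6 NP arrays sat in the upper row of their slide, together with LP_d21 4a and LP_d28 4f, while the other 4 LP arrays sat in the lower row.

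The array LP_d21 6a stood apart from the rest. Its median correlation with the other arrays over the tested probes was 0.960, against 0.974 to 0.989 for the other 11. On the principal component with the largest share of the variance (33.4%) it lay at 114.6, and the others lay between -61.4 and 11.1. The main results that include it are also given without it.

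On LP_d21 6a, 7 of the 8 members had their lowest level of the 12 arrays. RT1-Ba, the exception, was at -8.68 there and at -8.79 on LP_d28 6f, neither well above background. The distance to the next lowest array was largest for Ciita, at 2.59 log2 units or 6.00-fold, followed by Cd74 (1.69), RT1-Da (1.61), RT1-Bb (1.60), RT1-DMa (0.87), RT1-DMb (0.60) and RT1-Db1 (0.28). At the other end, NP_d28 5f had the highest level of RT1-Ba, RT1-Bb, RT1-DMa, RT1-DMb, Cd74 and Ciita.

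RT1-Bb encodes the beta chain of RT1-B, the rat counterpart of human HLA-DQ. Its brighter probe, A_44_P552452 (rn4, chr20:4730533-4730583, minus strand), read 4.10, 3.92 and 3.49 on NP_d21 4a, 5a and 6a and 3.41, 1.45 and 3.04 on LP_d21 4a, 6a and 7c. On day 28 it read 4.32, 4.44 and 3.80 on NP_d28 4f, 5f and 6f and 3.78, 3.66 and 3.73 on LP_d28 4f, 6f and 7f. The LP rats lay below the NP rats on both days without overlap, though on day 28 the highest LP rat (3.78) came close to the lowest NP rat (3.80). The other probe of the gene, A_64_P043911 (rn4, chr20:4732187-4732246, minus strand), followed it closely: the difference between both probes stayed between 1.02 and 1.47 on the 12 arrays, and their levels correlated with r = 0.989 (n = 12 arrays). With that probe the diets overlapped on both days, since LP_d21 4a (2.26) lay above NP_d21 6a (2.22) and LP_d28 4f (2.4) and 7f (2.45) lay above NP_d28 6f (2.34). Statements below that RT1-Bb did not overlap refer to the brighter probe.

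RT1-Ba encodes the alpha chain of RT1-B, and its only probe, A_44_P128248 (rn4, chr20:4700973-4701032, plus strand), was dim. It read -5.48, -5.86 and -6.89 in the NP_d21 rats (4a, 5a, 6a) and -7.66, -8.68 and -7.68 in the LP_d21 rats (4a, 6a, 7c). On day 28 the levels were -6.16, -4.30 and -8.31 in the NP rats (4f, 5f, 6f) and -6.12, -8.79 and -5.79 in the LP rats (4f, 6f, 7f). The probe was well above background on 7 of the 12 arrays, all 3 of NP_d21, 2 of NP_d28, 2 of LP_d28 and none of LP_d21. In the LP_d21 group it has therefore no more than a bound. Spots of this probe on 1 array also differed from each other by a median of 0.71 log2 units between the brightest and the dimmest, and by up to 1.33.

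RT1-Da encodes the alpha chain of RT1-D, the counterpart of HLA-DR. With probe A_44_P991532 (rn4, chr20:4641104-4641163, plus strand) it read 2.93, 2.96 and 2.79 in the NP_d21 rats and 2.77, 0.75 and 2.36 in the LP_d21 rats, in the order given above for each group. On day 28 it read 3.64, 3.46 and 3.33 in the NP rats and 3.14, 3.4 and 2.75 in the LP rats. Every NP_d28 rat lay above every NP_d21 rat. The diet groups were separate on day 21, by a margin of 2.77 against 2.79, and overlapped on day 28, where LP_d28 6f lay above NP_d28 6f.

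RT1-Db1, the beta chain of RT1-D, had a pair of probes that gave different orders of the rats. The brighter by its mean, A_64_P134927 (rn4, chr20:4671516-4671575, minus strand), read 2.46, 2.56 and 3.35 in NP_d21, 3.42, 1.91 and 2.99 in LP_d21, 3.97, 3.01 and 4.44 in NP_d28 and 3.68, 4.46 and 2.19 in LP_d28. The other, A_64_P130578 (rn4, chr20:4672665-4672724, minus strand), read 3.1, 3.17 and 3.07 in NP_d21, 3.08, 0.96 and 2.55 in LP_d21, 3.62, 3.57 and 3.4 in NP_d28 and 3.14, 3.38 and 2.76 in LP_d28. With A_64_P134927 the diet groups overlapped on both days. With A_64_P130578 the NP rats of each day lay within a narrow range, all LP_d28 rats were below all NP_d28 rats, and on day 21 LP_d21 4a (3.08) stood between NP_d21 6a (3.07) and NP_d21 4a (3.1).

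RT1-DMa and RT1-DMb form the DM molecule, which acts in endosomes and is not itself a presenting molecule. RT1-DMa (A_64_P128478; rn4, chr20:4844372-4844431, minus strand) read 0.80, 0.72 and 0.26 in NP_d21, 0.19, -1.07 and -0.20 in LP_d21, 0.64, 1.02 and 0.17 in NP_d28 and 0.26, 0.15 and 0.73 in LP_d28. RT1-DMb (A_64_P062110; rn4, chr20:4830313-4830372, minus strand) read 0.80, 0.77 and 0.95 in NP_d21, 0.76, -0.24 and 0.36 in LP_d21, 0.97, 1.17 and 0.97 in NP_d28 and 0.78, 0.81 and 0.63 in LP_d28. The LP rats were below the NP rats on day 21 for both chains. On day 28 this held for RT1-DMb, while LP_d28 7f exceeded 2 of the 3 NP rats for RT1-DMa.

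Cd74, the invariant chain, which blocks the peptide groove of new class II molecules and guides them to endosomes, was measured by probe A_44_P549494 (rn4, chr18:56765468-56765527, plus strand). It read 4.65, 4.59 and 4.48 in the NP_d21 rats and 4.25, 2.09 and 3.78 in the LP_d21 rats. On day 28 the NP rats had 4.86, 5.08 and 4.57 and the LP rats 4.40, 4.52 and 4.16. The LP rats lay below the NP rats on both days, narrowly on day 28 (4.52 against 4.57).

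Ciita, the factor on which transcription of the other members depends (A_64_P010569; rn4, chr10:5087176-5087235, minus strand), read -1.01, -1.46 and -1.44 in NP_d21 and -1.49, -4.73 and -1.96 in LP_d21. Its day 28 levels were -1.10, -0.73 and -1.04 in NP and -1.16, -1.12 and -2.14 in LP. The LP rats again lay below the NP rats on both days. The lowest value after that of LP_d21 6a came from LP_d28 7f, which was also the lowest of the day 28 rats for RT1-Da, RT1-DMb, Cd74 and both RT1-Db1 probes.

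**Figure D1:**
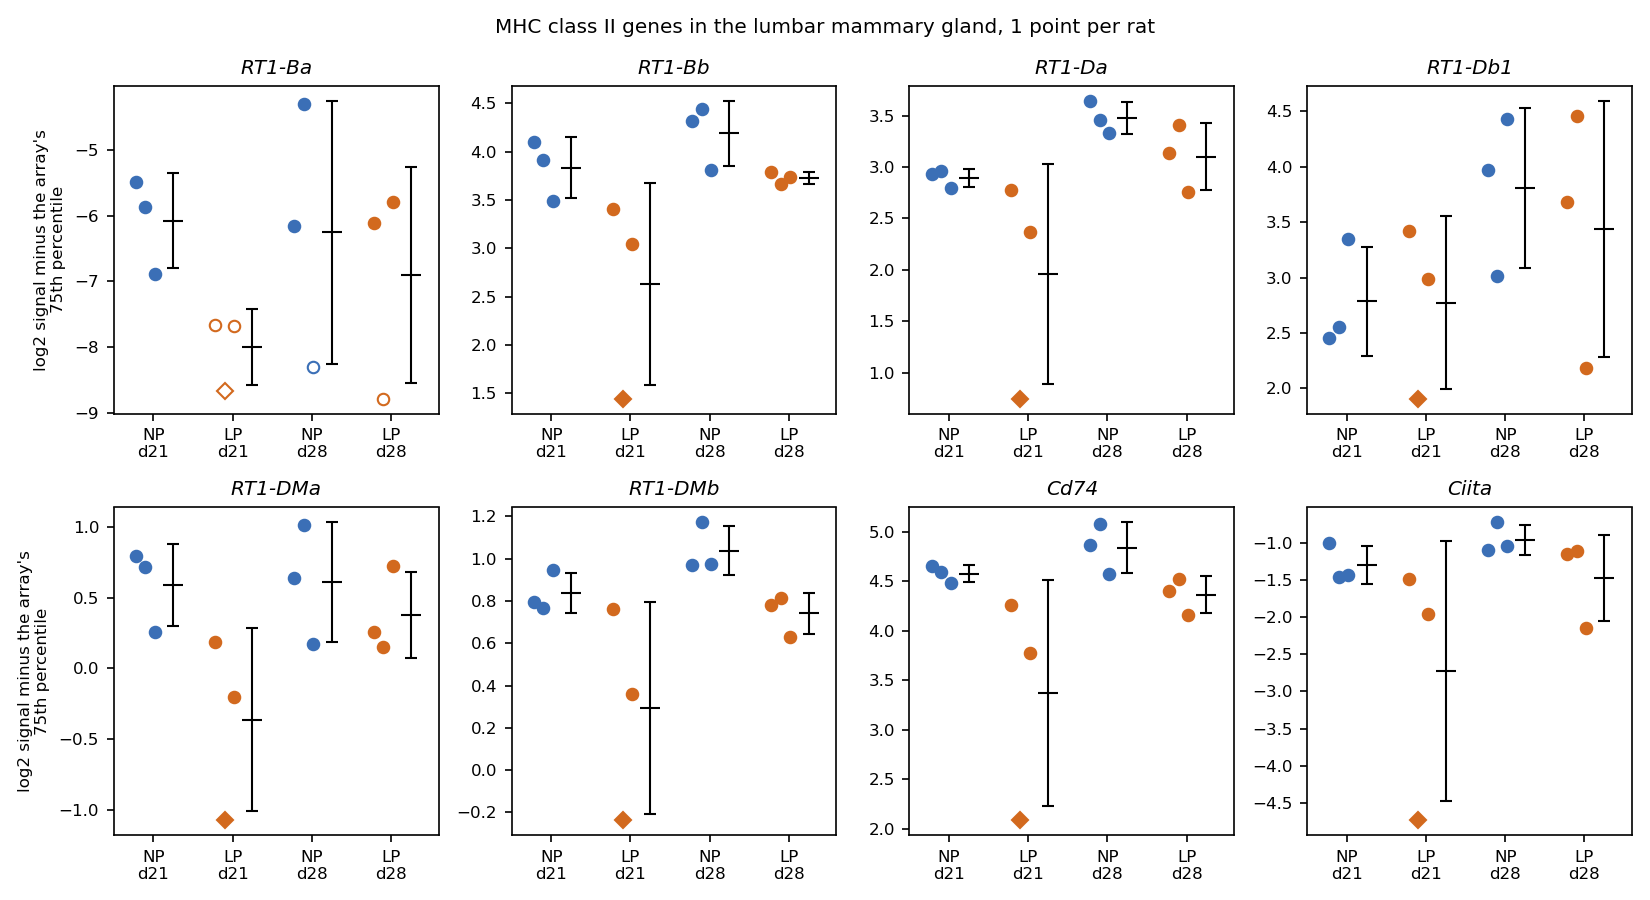
Each panel plots 1 gene, with the log2 signal minus the 75th percentile of the array on the y axis and the 4 groups on the x axis; each point is 1 rat (blue NP, orange LP, diamond LP_d21 6a, open symbols not well above background), and bars give the mean ± SD of the 3 rats. LP_d21 6a is the lowest point for 7 of 8 genes, and the other LP_d21 rats also lie below the NP_d21 rats for 7 of 8 genes, RT1-Db1 being the exception and RT1-Ba not well above background in LP_d21.

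For the comparison of the diets on day 21, all 8 members had a lower mean in LP than in NP, and for 6 of the 8 every LP rat was below every NP rat, a separation in this direction that 5.95% of all probes with a value on every array also showed. The signals of RT1-Ba had the same order, but those of LP_d21 were not well above background, so it is not counted among the 6. The mean ± SD (n = 3) was 3.83 ± 0.31 in NP and 2.63 ± 1.04 in LP for RT1-Bb, 4.58 ± 0.09 and 3.37 ± 1.14 for Cd74, and 0.59 ± 0.29 and -0.36 ± 0.65 for RT1-DMa. The log2 differences were -1.20 for RT1-Bb (95% interval -2.15 to -0.25), -1.20 for Cd74 (-2.18 to -0.22), -0.95 for RT1-DMa (-1.69 to -0.22) and -0.54 for RT1-DMb (-1.005 to -0.08). They were -0.93 for RT1-Da (-1.87 to 0.01), -1.42 for Ciita (-2.96 to 0.11) and -0.01 for RT1-Db1 (-1.36 to 1.34), whose other probe, A_64_P130578, gave -0.92. The mean of RT1-Ba was 1.501-fold higher in NP at its bound. For the bound, each LP array counts with the higher of its own signal and the lowest signal of any probe well above background. It does not cover the spread between rats, and as fitted the 95% interval of RT1-Ba was -4.18 to 0.33. The median of the 8 differences was -1.08, against 0.01 over all tested probes, of which 47.8% were lower in LP, and it was -0.94 with RT1-Ba at its bound.

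None of these differences passed the test across all probes. The adjusted p of limma was 0.861 for RT1-Ba and for the 6 members whose rats did not overlap (lower in 3 of 3 LP rats) and 0.999 for RT1-Db1 (difference -0.01, 1 of 3 LP rats below all NP rats). Over all probes limma called 0 (0%) at an adjusted p under 0.05, with 1011 (4.36%) at an unadjusted p under 0.05, and 4 members were among the latter, RT1-Bb, RT1-DMa, RT1-DMb and Cd74. Without LP_d21 6a these counts were 478 (2.07%) and 2 members, RT1-Bb and Cd74, with 0 called. The exact two-sided permutation p was 0.1 for each of the 6, the smallest that 3 rats against 3 allow. Without LP_d21 6a the direction held for 7 members and the sizes were smaller: -0.61 for RT1-Bb, -0.60 for RT1-DMa, -0.56 for Cd74, -0.42 for Ciita, -0.33 for RT1-Da and -0.28 for RT1-DMb, with RT1-Db1 at 0.42 (-0.30 with A_64_P130578) and a median of -0.49. RT1-Ba then stood at least 1.49-fold higher in NP, and both remaining LP rats were below all NP rats for the same 6 members, as for 8.24% of all probes. Adding the slide row as a covariate gave a member median of -0.69 on day 21. A lower level in whole tissue can mean fewer cells that express a gene or less RNA per cell, and the arrays cannot tell these apart.

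On day 28 all 8 members again had a lower mean in LP than in NP as fitted. For RT1-Ba the direction is not known, since NP_d28 6f and LP_d28 6f were not well above background. With an array left out its difference ran from -1.67 to 0.33. The differences were -0.51 for Ciita, -0.48 for Cd74, -0.46 for RT1-Bb, -0.38 for RT1-Da, -0.37 for RT1-Db1 (-0.44 with A_64_P130578, without overlap), -0.30 for RT1-DMb and -0.23 for RT1-DMa. RT1-Ba was at -0.64 as fitted, a value that gives no size. Every LP rat was below every NP rat for 4 of 8 members (RT1-Bb, RT1-DMb, Cd74 and Ciita), and 12.4% of all probes were separate in this direction. The spread within the groups was small for Cd74 (4.84 ± 0.26 in NP, 4.36 ± 0.19 in LP) and RT1-DMb (1.04 ± 0.12 and 0.74 ± 0.10) and wide for RT1-Ba (-6.26 ± 2.0 and -6.90 ± 1.64). The adjusted p in limma lay between 0.601 and 0.815 for these differences, and the exact two-sided p was 0.1 for the 4 members without overlap. Of all probes 0 (0%) were called and 1873 (8.07%) had an unadjusted p under 0.05, none of them a member. With LP_d21 6a left out of the fit, 2 members had an unadjusted p under 0.05 on day 28, RT1-DMb and Cd74, with the same differences, among 2550 of 23116 probes, and the lowest adjusted p of a member was 0.426. The member median was -0.42, against -0.05 over all probes, of which 57.3% were lower in LP. With the slide row added as a covariate it was -0.015, with 5 members lower and 3 higher in LP.

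The change of the diet difference from day 21 to day 28 was tested as an interaction. It was above 0 for 6 members, and for RT1-Db1 it was -0.35 with A_64_P134927 and 0.48 with A_64_P130578. RT1-Ba, not well above background in LP_d21, gives no size here. The median was 0.73 with RT1-Ba as fitted and 0.72 over the other 7, against -0.04 over all probes. Limma gave an adjusted p of 1.0 for all 8 (sizes -0.35 to 0.91 without RT1-Ba; 525 probes had an unadjusted p under 0.05 and 0% were called). Without LP_d21 6a the median was 0.03 with RT1-Ba as fitted and -0.019 over the other 7, of which 3 were above 0 and 4 below. The comparison on day 21, that on day 28 and this change share arrays, so they are not separate measurements.

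Between the days, 7 members had a higher mean on day 28 than on day 21 over both diets. For RT1-Ba neither the size nor the direction is known, since LP_d21 was not well above background. The differences were 0.86 for RT1-Da, 0.84 for RT1-Db1, 0.80 for Ciita, 0.72 for RT1-Bb, 0.63 for Cd74, 0.38 for RT1-DMa and 0.32 for RT1-DMb. RT1-Da had the lowest exact two-sided permutation p, 0.010, with labels exchanged within each diet, followed by RT1-Bb and RT1-DMb (both 0.020) and Cd74 (0.035). Without LP_d21 6a the exact p was 0.015 for RT1-Da, 0.025 for RT1-Bb, 0.045 for RT1-DMb and 0.05 for Cd74. None of the 8 was among the 421 probes (1.81%) that limma called, of which 243 were higher and 178 lower on day 28. At an unadjusted p under 0.05 limma had 4467 probes (19.2%), RT1-Bb and RT1-Da among them. The adjusted p was 0.162 for RT1-Da, whose 3 NP_d28 rats lay above all NP_d21 rats and whose LP_d28 rats overlapped with LP_d21, and up to 0.398 for the other 6. Without LP_d21 6a limma called 160 probes, again no member, and 3770 (16.3%) had an unadjusted p under 0.05, RT1-Bb, RT1-Da and Cd74 among them. The median of the 7 was 0.72 with all arrays and 0.30 without LP_d21 6a (RT1-Da 0.56, adjusted p 0.103 in limma), against 0.01 over all probes.

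Within the NP rats, which do not include LP_d21 6a, the day differences were 0.58 for RT1-Da (2.89 ± 0.09 on day 21, 3.48 ± 0.16 on day 28), 1.02 for RT1-Db1 (0.41 with A_64_P130578, without overlap), 0.35 for RT1-Bb, 0.34 for Ciita, 0.26 for Cd74, 0.20 for RT1-DMb and 0.02 for RT1-DMa. RT1-Ba was at -0.18 as fitted, but NP_d28 6f was not well above background, so neither its size nor its direction is known. For 2 of 8 members, RT1-Da and RT1-DMb, every day 28 rat was above every day 21 rat, and 11.7% of all probes were separate that way. Limma called 58 probes (0.25%) among the NP rats, no member among them (adjusted p 0.514 or higher; the highest member difference was 1.02, with overlap), and 2970 probes (12.8%) had an unadjusted p under 0.05. With LP_d21 6a left out of the fit, RT1-Da was the 1 member among 3073 probes (13.3%) with an unadjusted p under 0.05 (adjusted p 0.225 in limma, difference 0.58, 3 of 3 rats higher). Within the LP rats the differences ran from 0.45 for RT1-DMb to 1.25 for Ciita, with a median of 1.04, or 0.87 with RT1-Ba, not well above background in LP_d21, at its bound. RT1-Bb alone among the members was higher in every day 28 rat than in every day 21 rat (1.09), as were 7.18% of all probes. Of all probes 0 (0%) were called among the LP rats by limma and 2346 (10.1%) had an unadjusted p under 0.05, with 4 members among these, RT1-Bb, RT1-Da, RT1-DMa and Cd74. Their adjusted p was 0.418 or higher. Without LP_d21 6a 1 member, RT1-Da, was among the 1687 probes with an unadjusted p under 0.05. The median in LP was 0.37 (0.30 with RT1-Ba at its bound) without that array, and RT1-Bb still differed without overlap (0.50), as did 11.8% of all probes in the same direction.

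The members moved together over the arrays to a degree that differed from gene to gene. Over the 12 arrays, which share groups, slides and the outlying LP_d21 6a, the 28 pairs of members had a median Pearson r of 0.81, from -0.32 to 0.98, and without LP_d21 6a a median of 0.63, from -0.66 to 0.92. Leaving out RT1-Ba and RT1-Db1, the 15 pairs of the remaining 6 members ran from 0.80 to 0.98 with a median of 0.94, and without LP_d21 6a from 0.34 to 0.92 with a median of 0.79. The mean of the 8 members, with RT1-Ba at its signal on every array, was 1.15, 1.02 and 0.87 in NP_d21, 0.71, -1.07 and 0.34 in LP_d21, 1.39, 1.64 and 0.99 in NP_d28 and 1.10, 0.89 and 0.78 in LP_d28. In each day every LP rat except LP_d28 4f was thus below all NP rats of that day. LP_d28 4f (1.10) lay above NP_d28 6f (0.99), where RT1-Ba (-8.31) was not well above background. The order of these rats in the mean thus depends on a signal that was not measured above background.

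Among the other 20159 genes whose brightest probe was tested and had a value on every array, those whose level followed this mean most closely over the 12 arrays were TC588776, a transcript annotated as partly like Cd74 (r = 0.986), Slc15a3, Ly75, Serpinb6b, Cd83, Dennd2d, Arhgap30, Tmprss3, Spi1 and Blnk (r 0.971 to 0.983). Ly75 is an endocytic receptor of dendritic cells, Cd83 a surface protein of mature dendritic cells and B cells that limits the turnover of class II molecules, Blnk an adaptor of the B cell receptor, and Spi1 the transcription factor PU.1 of myeloid and B cells. With the group means taken off, the 10 closest were Dkk2, Serpinb6b, Cd69, Cd83, Sept6, B3gnt5, Tmprss3, Arhgap30, Lpxn and Lat (r 0.972 to 0.986). On LP_d21 6a, Dkk2 (-7.04), Cd69 (-6.98), B3gnt5 (-8.79) and Tmprss3 (-6.83) lay below the lowest probe well above background there (-6.69). Their r over the 12 arrays thus rests in part on signals not measured above background. Over the other 11 arrays, with the group means left in, r was 0.465 for Dkk2, 0.607 for Cd69 and 0.657 for Lat, and of these 10 only Serpinb6b and Cd83 were among the 10 closest without LP_d21 6a. Without LP_d21 6a, TC588776 (0.941), Iah1 (0.939), Slc15a3 (0.930), Tle4, Serpinb6b, Ly75, Gdpd3, Olr1051, ENSRNOT00000051225 and Cd83 (0.915) came closest, so TC588776, Slc15a3, Serpinb6b, Ly75 and Cd83 were among the 10 closest with and without that array.

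The other genes of the pathway were followed in 7 lists. Other class II genes are RT1-DOa and RT1-DOb, which form the DM inhibitor DO of B cells, and RT1-Ha; these 3 of 6 listed genes were on the array. All 3 had lower means in LP on both days, with medians of -1.74 on day 21, -0.53 on day 21 without LP_d21 6a, and -0.78 on day 28. Limma called 0 of them, with 1 and 0 at an unadjusted p under 0.05 on day 21 and day 28. With LP_d21 6a left out of the fit these counts were 0 and 3, among 478 and 2550 of 23116 probes. RT1-DOb read -0.65, -0.64 and -0.72 in NP_d21, -0.90, -4.86 and -1.51 in LP_d21, -0.44, -0.27 and -0.66 in NP_d28 and -0.85, -0.81 and -1.88 in LP_d28. Every LP rat was thus below every NP rat of its day for this gene, as for 2 of the 3 genes on each day and for 5.95% and 12.4% of all probes.

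The proteases, thiol reductase and ubiquitin ligases that handle class II molecules and their cargo formed a list together with Cd83 (10 of 10 genes tested, brightest Ctsb). Its medians were -0.01 on day 21 and 0.00 on day 28, with 6 of 10 and 5 of 10 lower in LP. The transcription factors of the class II promoters and of Ciita (11 of 11, brightest Irf1) had -0.08 and -0.15, with 7 and 9 lower. The interferon gamma signal (5 of 6 tested, brightest Ifngr1) had -0.13 and 0.03, and Ifng itself was well above background on 1 of 12 arrays. Without LP_d21 6a the day 21 medians of these 3 lists were -0.071, -0.098 and -0.087. In none of them did limma call a gene for diet on either day. The number with an unadjusted p under 0.05 was 1, 0 and 0 on day 21 and 1, 0 and 0 on day 28, and with LP_d21 6a left out of the fit 0, 0 and 0 on day 21 and 2, 2 and 0 on day 28.

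Class I molecules present peptides to CD8 T cells on nearly all cells. Their heavy chains (20 of 27 listed genes tested, brightest RT1-A1) had a median of -0.36 on day 21 (-0.27 without LP_d21 6a), with 19 of 20 lower in LP (47.8% of all probes), and 0.20 on day 28, with 4 of 20 lower (57.3% of all probes). The class I loading genes (10 of 11 tested, brightest B2m) had -0.11 on day 21 (-0.042 without LP_d21 6a) and 0.13 on day 28. Costimulatory ligands (6 of 8 tested, brightest Cd40) had -0.54 on day 21 (-0.20 without LP_d21 6a) and -0.21 on day 28, with 6 of 6 lower on both days; Cd80 was well above background on 0 arrays and Tnfsf4 on 1. Limma called 0 genes of these 3 lists for diet, with 0, 0 and 1 at an unadjusted p under 0.05 on day 21 and 0 in each on day 28 (1, 0 and 0 on day 28 with LP_d21 6a left out of the fit). By day, 20 of 20 heavy chains had a higher mean on day 28 (median 0.45; 12 with an unadjusted p under 0.05, as had 19.2% of all probes). Over all probes 47.6% were lower on day 28. RT1-M3-1 (0.64) and B2m, the light chain of class I (0.64), were called by limma as higher on day 28, with adjusted p of 0.042 and 0.037 and all 6 day 28 rats above all day 21 rats. Neither was called without LP_d21 6a, where 19 of 20 heavy chains were higher on day 28 (median 0.43; 9 with an unadjusted p under 0.05, as had 16.3% of all probes).

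Markers of the cells that could carry class II molecules were followed as 10 further lists, of which 0 genes were called by limma for diet on either day, with 3 at an unadjusted p under 0.05 on day 21 and 0 on day 28. With LP_d21 6a left out of the fit, 3 leukocyte, 3 dendritic cell and 1 plasma cell gene had an unadjusted p under 0.05 on day 28. These are beside the B and T cell genes counted below. On day 21, 2 B cell genes and 1 plasma cell gene had one. Over all 23116 probes of that limma fit, 478 (2.07%) had one on day 21 and 2550 on day 28. Summed levels are sums of the linear signal of a list's genes in units of the 75th percentile of the array. The 8 members summed to 59.4, 56.6 and 54.1 in NP_d21, 50.5, 13.8 and 37.4 in LP_d21, 81.2, 79.4 and 73.0 in NP_d28 and 59.9, 71.6 and 45.9 in LP_d28.

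B cell markers (10 of 11 listed genes measured and tested) summed to 11.27, 9.85 and 9.13 in NP_d21, 8.68, 0.23 and 6.44 in LP_d21, 13.05, 13.06 and 10.96 in NP_d28 and 9.89, 8.50 and 4.65 in LP_d28. Every LP rat lay below every NP rat of the same day. On LP_d21 6a only 6 of the 10 genes were well above background, so the sum there includes signals that were not. The median difference of the list was -2.08 on day 21, -0.45 without LP_d21 6a, and -0.68 on day 28. On both days 10 of 10 genes were lower in LP, as were 47.8% and 57.3% of all probes. On both days 0 of the 10 had an unadjusted p under 0.05 in limma. With LP_d21 6a left out of the fit 6 had one on day 28, as had 2550 of 23116 probes.

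T cell markers (10 of 10, brightest Cd3d) summed to 23.3, 22.0 and 21.1 in NP_d21, 21.1, 0.41 and 17.5 in LP_d21, 29.5, 28.2 and 21.4 in NP_d28 and 20.6, 19.1 and 12.8 in LP_d28. On LP_d21 6a 7 of the 10 genes were well above background. By these sums every LP rat lay below every NP rat of its day, on day 21 by 21.09 against 21.14, while by the mean log2 level of the list LP_d21 4a (-0.11) lay above NP_d21 5a (-0.12). The list had a median difference of -2.15 on day 21, -0.21 without LP_d21 6a and -0.55 on day 28. Each time 10 of 10 genes were lower in LP, as were 47.8%, 47.3% and 57.3% of all probes. Each time 0 had an unadjusted p under 0.05 in limma. With LP_d21 6a left out of the fit 7 had one on day 28, as had 2550 of 23116 probes. Genes of all leukocytes (7 of 7, brightest Coro1a) summed to 74.4, 67.3 and 61.1 in NP_d21, 61.3, 9.31 and 55.8 in LP_d21, 84.2, 85.0 and 72.5 in NP_d28 and 65.0, 64.9 and 46.5 in LP_d28. LP_d21 4a (61.3) exceeded NP_d21 6a (61.1), and on day 28 the diets did not overlap. Their median difference was -1.19 on day 21, -0.16 without LP_d21 6a, and -0.39 on day 28. By day, 5 of the 7 had a higher mean on day 28, with a median of 0.67 (0.12 without LP_d21 6a), and none of these 5 was called. One of the other 2, Cd52, was lower on day 28 than on day 21 by limma (difference -0.80, adjusted p 0.038, all 6 day 28 rats below all day 21 rats), a call that was lost without LP_d21 6a.

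Genes of lymph node stroma and vessels, the chemokines Cxcl13, Ccl19 and Ccl21 and the addressins Madcam1 and Glycam1 (5 of 5, brightest Glycam1), were above background on every array although visible nodes had been removed. Glycam1 is also made by mammary epithelium. Their sums were 75.7, 50.8 and 51.3 in NP_d21, 58.0, 5.03 and 52.2 in LP_d21, 90.4, 82.6 and 61.8 in NP_d28 and 64.2, 60.6 and 41.4 in LP_d28. LP_d21 6a had the lowest sum, and the median of the other arrays was 12.05 times as high. Glycam1 and Ccl19, picked from the 5 after their values were seen, read -4.06 and -2.28 on LP_d21 6a. The other arrays had 2.48 to 5.21 and 3.82 to 4.67. The mean log2 level of all 5 genes was -1.29 on LP_d21 6a and 1.73 (LP_d28 7f) or higher elsewhere. The median difference was -0.89 on day 21, 0.09 without LP_d21 6a and -0.26 on day 28. Lower in LP were 4 of 5 genes on day 21, 2 of 5 without LP_d21 6a and 5 of 5 on day 28. Of all probes 47.8%, 47.3% and 57.3% were lower in LP.

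Macrophage markers (12 of 12, brightest Lyz2) differed less. They summed to 99.3, 100.7 and 89.4 in NP_d21, 88.4, 44.9 and 101.8 in LP_d21, 106.1, 143.0 and 114.5 in NP_d28 and 107.2, 119.4 and 140.4 in LP_d28. LP_d28 7f, low in B and T cell markers, was among the highest here, and the list median was -0.26 on day 21, -0.01 without LP_d21 6a and 0.14 on day 28. Dendritic cell markers (8 of 12 listed genes tested, brightest Clec10a) summed to 4.68, 5.10 and 4.37 in NP_d21, 4.12, 2.80 and 4.66 in LP_d21, 5.28, 5.09 and 4.53 in NP_d28 and 3.87, 5.13 and 7.33 in LP_d28. These sums are over 9 genes, with the untested Cd209a included. LP_d28 7f had the highest sum, but by the mean log2 level of the list (-3.91) it was the lowest after LP_d21 6a (-5.20). Xcr1 was well above background on 4 arrays and Cd209a on 2. The median of the tested genes was -0.88 on day 21 (-0.75 with Xcr1 at its bound), -0.30 without LP_d21 6a and -0.66 on day 28. Ccr7, the receptor that guides mature dendritic cells and T cells to lymph nodes, read -5.78 on LP_d21 6a and between -2.09 and -1.01 elsewhere.

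Plasma cell markers (5 of 7 listed genes tested, brightest Sdc1, which epithelium also expresses) had medians of -0.32, 0.05 without LP_d21 6a, and -0.22 on day 28, and sums between 5.80 and 11.9. Tnfrsf17, a receptor of plasma cells, was called by limma as higher on day 28 (adjusted p 0.015, fitted difference 2.34). Its levels ran from -5.57 to -3.70 on day 28, from -6.73 to -4.99 in NP_d21 and from -8.62 to -8.17 in LP_d21, and it was also called without LP_d21 6a. It was not well above background in LP_d21, so the fitted difference rests in part on signals that were not measured above background and does not give the size. Mammary epithelium (9 of 9, brightest Krt18) went the other way from the members, with medians of 0.81 on day 21, 0.45 without LP_d21 6a and 0.82 on day 28. On both days 9 of 9 genes were higher in LP, while 47.8% and 57.3% of all probes were lower. Every LP rat was above every NP rat for 0 of the 9 on day 21 and for 5 on day 28. Of all probes 5.54% and 4.41% were separate in this direction. The sums of mammary epithelium were 13.9, 27.2 and 14.0 in NP_d21, 31.2, 51.1 and 18.0 in LP_d21, 10.9, 24.9 and 24.3 in NP_d28 and 29.1, 30.7 and 27.5 in LP_d28. Adipocyte markers (5 of 6 tested, brightest Cfd) had medians of -0.04 on day 21 (-0.065 without LP_d21 6a) and 0.03 on day 28, and sums between 136.4 and 261.4. Skeletal muscle genes (6 of 6, brightest Mylpf) varied from 0.65 on LP_d21 4a to 75.1 on LP_d21 6a, with 50.9 on NP_d21 6a and 63.0 on LP_d28 6f, and had medians of -1.89 on day 21, -3.98 without LP_d21 6a and -0.88 on day 28.

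The mean of a list correlated with the mean of the members, over 12 arrays that include LP_d21 6a, with r = 0.934 for B cells, 0.932 for dendritic cells, 0.929 for leukocytes, 0.916 for T cells and 0.911 for lymph node stroma. Without that array r was 0.703, 0.694, 0.685, 0.676 and 0.531. Of the other lists, r was 0.951 for costimulatory ligands (0.831 without LP_d21 6a), 0.945 for the other class II genes (0.752), 0.921 for the class II transcription factors (0.704), 0.903 for class II processing (0.599) and 0.873 for plasma cells (0.652). Lower values were 0.740 for class I heavy chains (0.485), 0.625 for class I loading (0.409) and 0.608 for the interferon gamma signal (0.410). For macrophages it was 0.622 with LP_d21 6a and -0.03 without it, and for mammary epithelium -0.60 and -0.21. The 3 arrays with the lowest summed class II signal, LP_d21 6a, LP_d21 7c and LP_d28 7f, also had the 3 lowest sums of B cell and of T cell markers. The part of these cell types, of tissue from lymph nodes and of the epithelial share in the levels of the members was not tested.

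**Figure D2:**
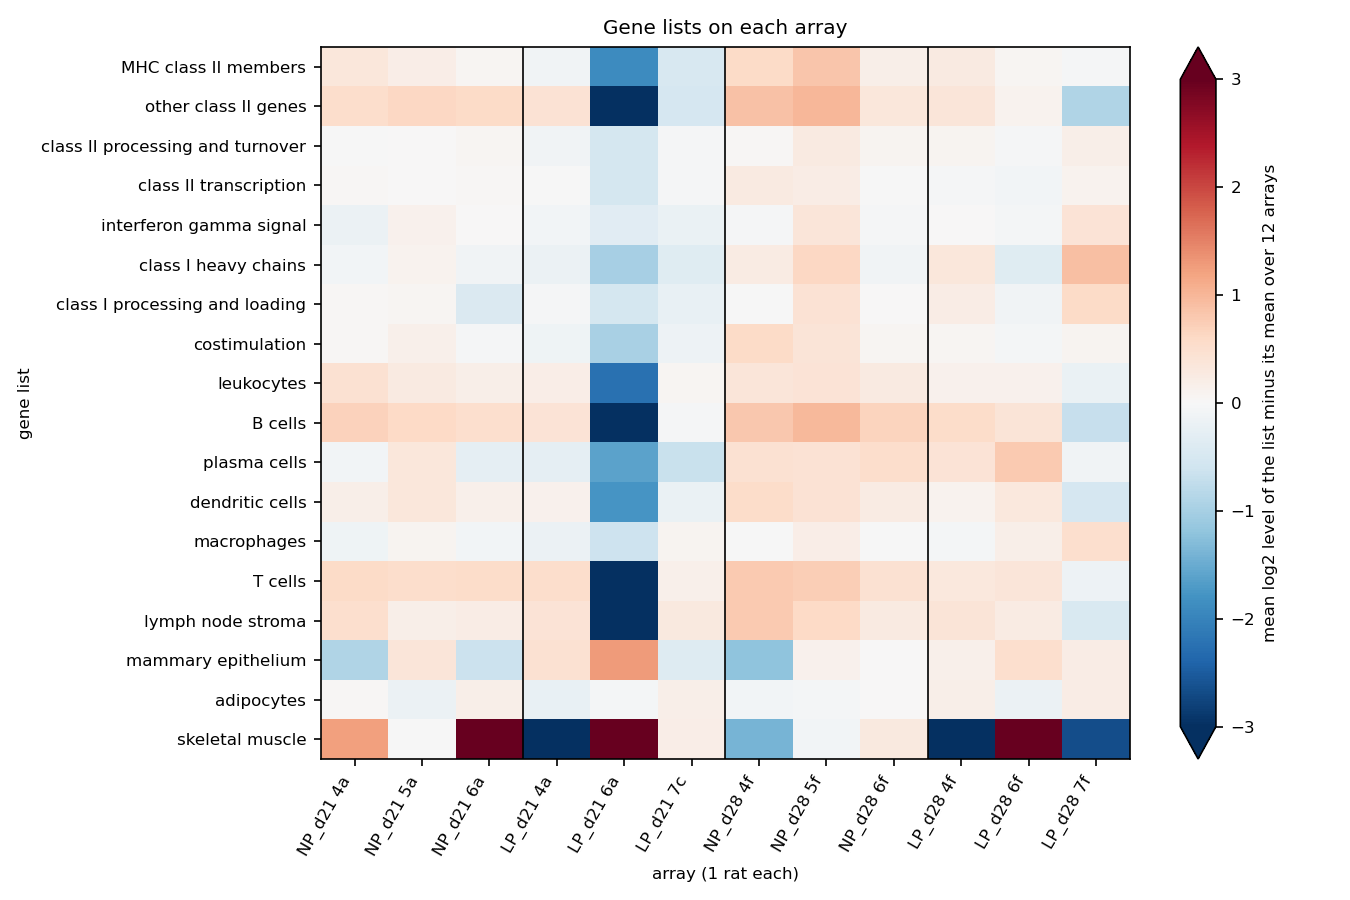
Each cell gives the mean log2 level of a gene list (y axis) on 1 array (x axis, ordered by group, with lines between groups) minus the mean of that list over the 12 arrays; the colour scale runs from -3 to 3 and arrows mark values beyond it. On LP_d21 6a the value is -4.87 for B cells, -4.83 for T cells and -3.48 for lymph node stroma. It is -3.40 there for the other class II genes and -1.88 for the MHC class II members. Macrophages (-0.61), class II processing and turnover (-0.53) and class II transcription (-0.52) are less low, and mammary epithelium (1.29) and skeletal muscle (3.79) are high.

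The difference between the probes of RT1-Db1 varied between rats within each diet and each day. The difference of A_64_P134927 minus A_64_P130578, which cancels a change that both probes read alike, was -0.64 on NP_d21 4a, -0.62 on NP_d21 5a, -0.57 on LP_d28 7f and -0.55 on NP_d28 5f. After a gap of 0.83 came NP_d21 6a at 0.27, LP_d21 4a and NP_d28 4f both at 0.35, LP_d21 7c at 0.44 and LP_d28 4f at 0.54. After a further gap of 0.41 came LP_d21 6a at 0.95, NP_d28 6f at 1.04 and LP_d28 6f at 1.08. The values thus fell into separate runs, each with rats of both diets and both days. On day 21 every LP rat (0.35 to 0.95) lay above every NP rat (-0.64 to 0.27), and on day 28 the diets overlapped. A dependence of this difference on diet or day was not tested. For RT1-Bb the difference between its probes spanned 0.44 log2 units, and for RT1-Db1 it spanned 1.72.

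RT1-Ba, which lies near RT1-Db1 on chromosome 20, went in the opposite order. It read between -5.86 and -4.30 on the 4 arrays with a negative difference, and between -8.79 and -6.12 on the other 8. RT1-Ba was not well above background on the 3 arrays with the highest difference, nor on LP_d21 4a and 7c. Ranked by the size of their Pearson r with the difference over the 12 arrays, a measure of order only since the values form separate runs, the 6 highest of 23175 probes were those of Col11a2, Zbtb9, RT1-Ba, RT1-CE2, LOC683761 and RT1-A2, with r between -0.94 and -0.85 (-0.93 to -0.84 without LP_d21 6a). Without that array RGD1311080 on chromosome 4 (r = -0.89) exceeded 4 of the 6 and LOC686860 on chromosome 1 (r = 0.87) exceeded 3 of them. All 6 lie on chromosome 20 between 3428746 and 5214026 in rn4, the region of the rat MHC. The 4 Mb from 2 to 6 Mb of that chromosome hold 170 (0.734%) of the probes ranked. None of the probes ranked 7 to 20 that had a place on a chromosome lay in it. LOC305806, ranked 10, was not assigned to a chromosome and LOC684280, ranked 16, had no position.

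RT1-A2, a class I heavy chain that presents to CD8 T cells, read 3.59, 3.86 and 3.22 in NP_d21 (4a, 5a, 6a), 3.14, 1.87 and 2.89 in LP_d21 (4a, 6a, 7c), 3.46, 4.41 and 2.26 in NP_d28 (4f, 5f, 6f) and 3.74, 2.38 and 4.93 in LP_d28 (4f, 6f, 7f). Col11a2, a collagen chain whose gene lies beside the class II genes, read -2.0, -1.87 and -2.76, then -2.53, -3.13 and -2.72, then -2.21, -1.68 and -3.16, and then -2.61, -2.96 and -2.01 in the same order. For both genes LP_d21 6a, NP_d28 6f and LP_d28 6f were the 3 lowest and LP_d28 7f was among the 4 highest arrays. This order was noticed after the values were seen. The signal of a probe depends on how well it matches the transcript, the sequence of the MHC region of these rats was not measured, and its part in the order of the rats was not tested.

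**Figure D3:**
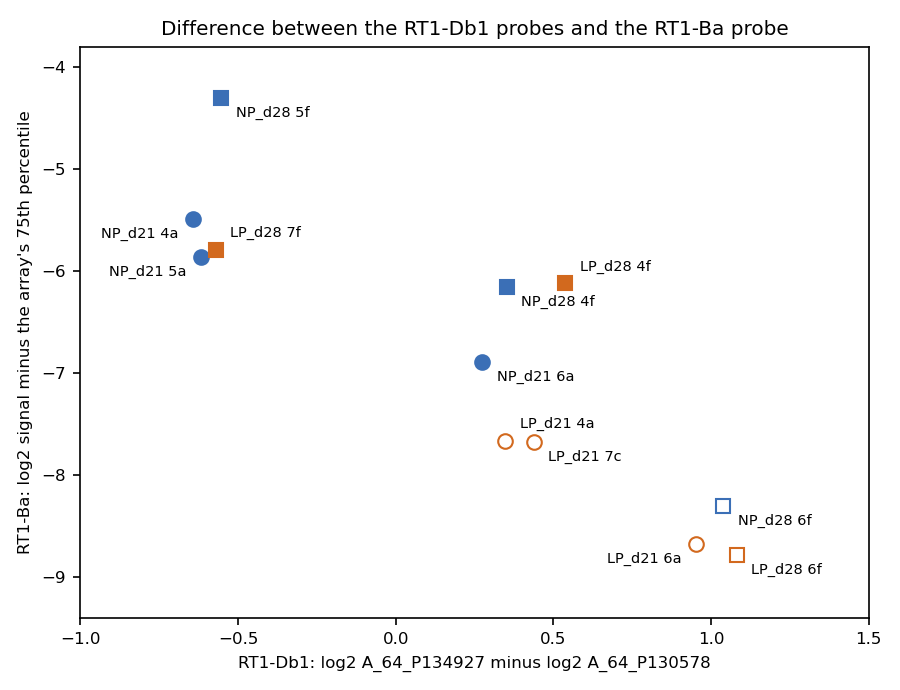
The x axis is the log2 difference between the RT1-Db1 probes A_64_P134927 and A_64_P130578 and the y axis the log2 level of RT1-Ba, with 1 point per rat (blue NP, orange LP, circles day 21, squares day 28, open symbols RT1-Ba not well above background). The 4 rats with a difference from -0.64 to -0.55 have RT1-Ba between -5.86 and -4.30, and the 3 with 0.95 to 1.08 have it between -8.79 and -8.31.

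The sequences of these probes are shown because the RT1-Db1 pair gave different orders of the rats. The RT1-Ba probe and A_64_P130578 are given whole and A_64_P134927 by its first 30 bases, all 5′ to 3′.
RT1-Ba A_44_P128248: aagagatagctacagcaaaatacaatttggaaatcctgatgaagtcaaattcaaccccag
RT1-Db1 A_64_P130578: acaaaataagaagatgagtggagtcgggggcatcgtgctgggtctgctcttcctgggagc
RT1-Db1 A_64_P134927: ttcaagcagaagaaataccattcatgcata

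Promoters of the members were searched for the boxes at which Ciita acts. Those of 300 bases around the gene start were available from RefSeq (GRCr8) for 6 of the 8 members, RT1-Ba, RT1-Bb, RT1-Da, RT1-Db1, RT1-DMa and Cd74, and both strands were read. The Y box core ATTGG was present in 6 of 6, as in 37.5% of all 33469 promoters of the same length. The longer form TGATTGG, which contains ATTGG, was present in 5 of 6 (not in Cd74) and in 7.06% of all promoters. The X box core GCAACNGAT, where N is any base, was present in 2 of 6, RT1-Da and RT1-Db1, and in 0.394% of all. A match describes the letters and does not show a bound site.

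Windows of 57 bases around the longer Y box of the 5 members that hold it, on chromosome 20 of GRCr8, show how the boxes are placed. They are written 5′ to 3′ on the strand of the gene, with TGATTGG and, where present, the X box core in capitals. The Y box began 45 bases before the gene start in RT1-Ba (chr20:4576972-4577028, plus strand), 63 in RT1-Bb (chr20:4604165-4604221, minus strand), 51 in RT1-Da (chr20:4515324-4515380, plus strand), 82 in RT1-Db1 (chr20:4560228-4560284, minus strand) and 66 in RT1-DMa (chr20:4712385-4712441, minus strand).
RT1-Ba: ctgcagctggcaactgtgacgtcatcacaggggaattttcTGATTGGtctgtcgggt
RT1-Bb: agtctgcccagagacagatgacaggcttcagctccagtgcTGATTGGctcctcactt
RT1-Da: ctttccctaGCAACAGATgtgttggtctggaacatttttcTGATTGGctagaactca
RT1-Db1: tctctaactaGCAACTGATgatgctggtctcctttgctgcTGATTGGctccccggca
RT1-DMa: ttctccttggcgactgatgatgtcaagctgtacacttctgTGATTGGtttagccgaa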

How the data were processed

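The scanner files hold the spot intensity of each array as deposited by the authors, who used Agilent Feature Extraction 10.7.3.1 with spatial and multiplicative detrending within each array and no scaling between arrays. Other columns of the deposited files are flags of the same software for spots above background, saturated spots and outliers. The deposited value table holds the ratio of each spot to the median of its array by the authors; it matched the scanner signal to a relative deviation of 6.6e-05 at most, its column medians are 1, and it was used as an alternative.

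Control spots and the 259 to 766 outlier spots per array were left out, log2 signals were scaled to the 75th percentile of each array, replicate spots were averaged, and a probe was kept if 3 or more of the 12 arrays had it well above background. One limma model (3.58.1, R 4.3.3) with the 4 groups as terms was fitted over 23209 probes, with the Benjamini-Hochberg adjustment over all of them, a threshold of 0.05 and 1.95 prior degrees of freedom. The fit was tested on simulated data. Exact two-sided permutation tests were run for the members. Values were read with the R package data.table (version 1.17.8), sequences with Python 3.11.15 and figures with matplotlib 3.10.9. The number of arrays limits the precision.

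The members and the 17 gene lists were chosen with earlier results of these data known. Named were the 8 members, of each list its counts, median, brightest gene and up to 3 genes with the lowest p, and the 10 genes that followed the member mean most closely. One gene of the lists is not reported here. Genes of the lists named for their level on LP_d21 6a, and those that followed the RT1-Db1 probes, were chosen after their values were seen. Alternatives were normexp background correction (offset 50), quantile normalization, the value table, no filter, a filter on all 12 arrays, outlier spots kept, the mean of a gene's probes, an intensity trend with robust variance, only the arrays compared, the row on the slide, the replicate number as a block, and each array left out.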

Additional observations from a re-analysis of the deposited data

How the results depend on the processing

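With 11 alternatives and each of the 12 arrays left out in turn, 0 of 1082 values of single members passed an adjusted p of 0.05 in limma (lowest 0.103), and 21 had the other sign. With RT1-Ba as fitted, the member medians kept their sign in each comparison. All 8 members, with RT1-Ba as fitted, were lower in LP on both days under quantile normalization and normexp. The value table holds the scanner signal over the median of each array, so it had to return the same differences and counts. The cause was not tested for the values that follow. Called probes by day were 421 and became 271 with normexp, 217 with no filter and 103 (without NP_d21 6a) to 401 (without NP_d28 4f) with an array left out; the count moved by over 1.5 times without each array other than NP_d28 4f and 6f. Among NP rats they were 58 and became 0 with no filter, 88 with a filter on all 12 arrays, 91 with trend and robust variance, 0 with only the arrays compared, 36 with the slide row and 0 to 39 with an array left out (39 without LP_d21 6a). Among LP rats they were 0 and became 6 with normexp, 1 with only the arrays compared and 0 to 4 with an array left out. The share higher on day 28 was 57.7% of the called probes and 75.6% with normexp (NP rats 74.1% and 86.2%). Same-numbered rats were not paired in the main fit. The r of their deviations was -0.06 to 0.38 between days, over 0.1 in 4 of 6 pairs. Between diets it was 0.09 to 0.13, over 0.1 in 1 of 4 pairs. No source used here says what the numbers name, and whether same-numbered rats resemble each other was not tested. A block for the replicate number gave called probes of 21 by day and 0 among NP rats and member medians of -1.23 on day 21 and -0.21 on day 28. Signs turned for RT1-Ba (0.30) and RT1-DMa (-0.012) by day in NP with normexp, for RT1-Db1 on day 21 (0.43) and RT1-Da (0.047), RT1-Db1 (0.078) and Ciita (0.26) on day 28 with the slide row, and for the change of RT1-Db1 (0.064) with the mean of its probes. With the mean of a gene's probes 385 of 20199 genes were called by day, 61 among NP rats and 0 among LP rats (2028 there with an unadjusted p under 0.05). With an array left out, the median on day 21 ran from -1.46 (without LP_d21 4a) to -0.49 (without LP_d21 6a), by day in LP from 0.37 (without LP_d21 6a) to 1.35, and for the change from 0.033 (without LP_d21 6a) to 1.06. RT1-Db1 ran from -0.34 to 0.42 on day 21, from -0.87 to 0.26 on day 28 and from -0.86 to 0.27 for the change. RT1-Ba ran from -1.67 to 0.33 on day 28, from -0.023 to 0.98 by day and from -1.15 to 0.85 by day in NP, and RT1-DMa from -0.19 to 0.24 by day in NP. On day 28, Ciita ran from -0.69 to -0.18 (without LP_d28 7f), RT1-Da from -0.53 to -0.21 (without LP_d28 7f) and RT1-DMa from -0.45 to -0.026 (without NP_d28 5f). For the change, RT1-Da ran from -0.054 to 0.96, RT1-DMb from -0.019 to 0.48 and Ciita from -0.093 to 1.53. RT1-Ba, not well above background on 5 of 12 arrays, is the member that signal over background limits.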
